A study of Mus musculus with 6 samples.

Results

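Eicosanoids are signalling lipids made from arachidonic acid, and 10 of the 55487 genes in the deposited count table are described here as their synthesis, breakdown and receptor genes. They were taken from the table by symbol: Pla2g4a, Ptgs1, Ptgs2, Ptges, Ptgds, Hpgd, Ptger2, Ptger4, Alox5 and Alox5ap. All 10 were found and all 10 passed the filter on low counts. The counts come from polyadenylated RNA of whole dorsal mouse skin on day 2, from 3 control samples and 3 samples treated with DPCP. DPCP (diphenylcyclopropenone) is a small reactive compound that, applied to skin, sensitizes it and causes contact allergy, and the study's title places it in work on macrophages and hair regeneration. The labels give no strain, age or sex, do not say what control skin received or on what schedule DPCP was applied, and do not say whether the samples of a group are separate animals. What the p-values measure is thus the spread among these 6 samples, part of which may be technical.

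Arachidonic acid is freed from membrane phospholipids by phospholipases, of which the cytosolic enzyme encoded by Pla2g4a is the best known. Cyclooxygenases turn it into prostaglandin H2, which terminal synthases convert to prostaglandin E2 (PGE2), prostaglandin D2 (PGD2) and other prostanoids, while 5-lipoxygenase turns it into leukotrienes. In inflamed tissue PGE2 widens vessels and sensitizes nerves, leukotriene B4 attracts neutrophils, and in skin PGD2 has been described as an inhibitor of hair growth and PGE2 and prostaglandin F2 alpha as promoters of it.

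In DPCP skin transcripts of the inducible cyclooxygenase Ptgs2 were 9.83-fold and those of the inducible PGE2 synthase Ptges 3.32-fold above control, while the constitutive cyclooxygenase gene Ptgs1 was 1.95-fold lower. Transcripts of Ptgds, 1 of the PGD2 synthase genes, and of the prostaglandin-degrading enzyme Hpgd were lower, and the receptor genes Ptger2 and Ptger4 moved in opposite directions. In the leukotriene branch Alox5ap rose and Alox5 did not pass the test. By the quasi-likelihood test of edgeR, 9 of the 10 genes were called at a Benjamini-Hochberg adjusted p under 0.05, 4 higher and 5 lower. Of all 18259 genes tested, 46.1% were called, 22.8% as higher and 23.3% as lower. For 9 of the 10 genes the CPM ranges of the groups did not overlap, as for 58.0% of all tested genes. The median log2 fold change of the 10 genes was −0.26, against −0.01 for all tested genes. Values below are TMM-scaled CPM, each gene's counts relative to its library's total, as mean ± SD of 3 libraries, and log2 fold changes are DPCP over control with their standard error (SE).

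**Figure D1:**
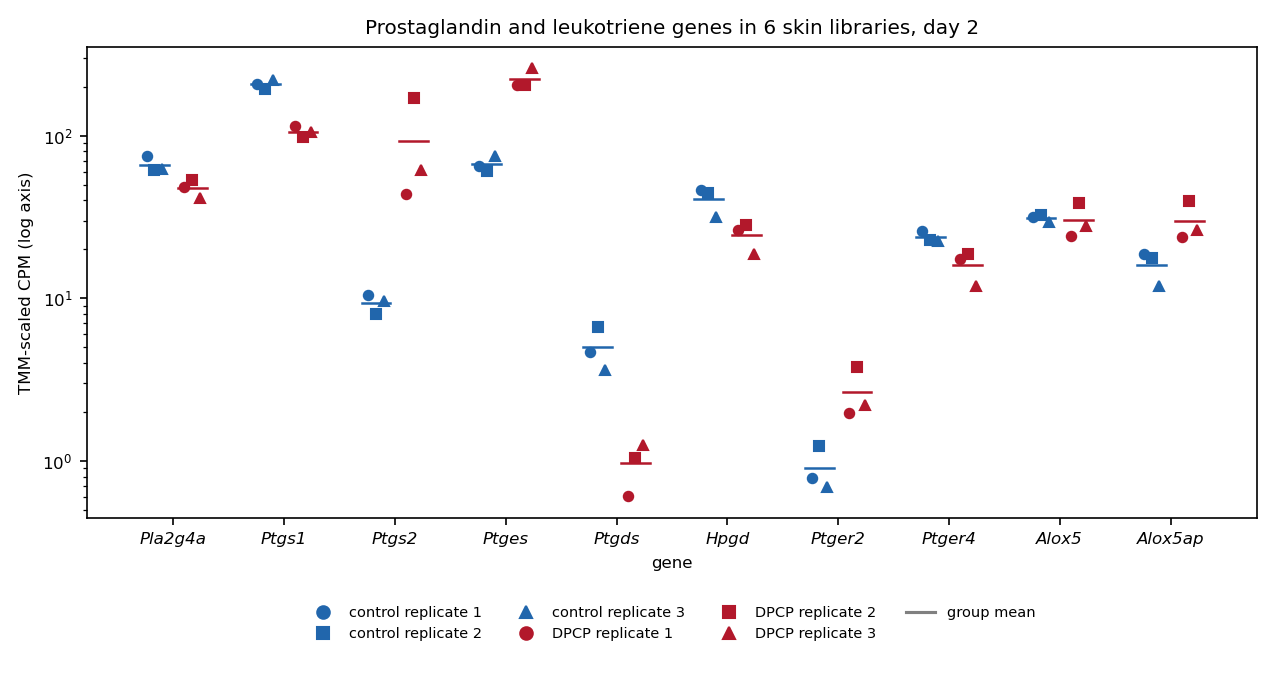
Level of each of the 10 eicosanoid genes (y axis, TMM-scaled CPM on a log axis) in each control and DPCP library (points), with group means (horizontal lines). Alox5 is the gene whose control and DPCP points overlap, and for Ptgs2 DPCP replicate 2 at 171 CPM stands well above the other 2 DPCP libraries.

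Library totals were 28346992 to 38846787 counts, so 3 counts, the upper limit that a count of 0 allows, stood for 0.0772 to 0.106 CPM; this covers counting error only, and mates of a pair were counted separately. The axis of largest variance, 77.1% of the total, separated the groups, and DPCP replicate 1 lay nearest to control on it. The ribosomal RNA gene CT010467.1 took 2.46% of the counts of DPCP replicate 2 and 0.167% to 0.489% of those of the other 5 libraries. Basal keratinocyte genes, which mark epidermis, summed to 11056 to 13576 CPM in control and 24724 to 28504 CPM in DPCP libraries, with 3 of 6 called higher and 1 lower. Most of that difference was Krt14, with control at 4776 ± 396 CPM and DPCP at 17426 ± 1233 CPM, while Krt5 and Trp63 were not called and Col17a1 was lower. Genes of skeletal muscle, which lies beneath mouse skin as a thin sheet, summed to 9178 to 11568 CPM in control and 2410 to 5077 CPM in DPCP libraries. In such whole tissue, fewer cells of a type and less RNA per cell cannot be told apart.

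The starts of both cyclooxygenase genes and of Ptges are shown because Ptgs2 and Ptges transcripts rose while those of Ptgs1 fell. Each run is the RefSeq window on GRCm38.p6 from 250 bases before to 50 bases after the annotated start, read 5′ to 3′ on the gene's strand. Capitals mark matches to any motif searched, on either strand. The C/EBP motif was searched as TTNNGNAA and the AP-1 motif as TGANTCA. For the core of a cyclic AMP response element the letters TGACG were used, and the TATA box was searched for by the letters TATAAA. The CCAAT box and the NF-kB motif were searched as well. The Ptgs2 window is chr1:150099781-150100080 (plus strand), the Ptgs1 window chr2:36230176-36230475 (plus strand) and the Ptges window chr2:30903248-30903547 (minus strand).
Ptgs2: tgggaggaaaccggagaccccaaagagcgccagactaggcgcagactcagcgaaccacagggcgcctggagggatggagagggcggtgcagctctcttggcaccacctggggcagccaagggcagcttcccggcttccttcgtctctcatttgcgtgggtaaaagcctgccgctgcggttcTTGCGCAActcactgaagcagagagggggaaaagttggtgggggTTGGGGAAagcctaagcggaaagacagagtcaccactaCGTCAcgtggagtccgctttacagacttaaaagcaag
Ptgs1: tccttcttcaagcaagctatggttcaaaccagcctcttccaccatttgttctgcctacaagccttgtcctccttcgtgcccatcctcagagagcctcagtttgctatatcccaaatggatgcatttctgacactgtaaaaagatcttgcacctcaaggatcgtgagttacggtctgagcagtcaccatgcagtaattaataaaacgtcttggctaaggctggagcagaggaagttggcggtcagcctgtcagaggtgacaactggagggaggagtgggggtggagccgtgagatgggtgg
Ptges: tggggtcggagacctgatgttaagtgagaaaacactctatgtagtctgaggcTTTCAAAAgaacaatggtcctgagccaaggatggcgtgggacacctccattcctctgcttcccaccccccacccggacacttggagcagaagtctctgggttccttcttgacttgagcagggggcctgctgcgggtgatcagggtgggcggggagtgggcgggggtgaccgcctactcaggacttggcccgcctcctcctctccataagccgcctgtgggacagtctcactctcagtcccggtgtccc
The Ptgs2 window held TTGCGCAA at base −69 and TTGGGGAA at base −25 from the start, both matches to the C/EBP motif, and CGTCA at base 14, the reverse complement of TGACG. The Ptges window held 1 C/EBP match, at base −198, and the Ptgs1 window held none of the motifs. The RefSeq start of Ptges lies 26566 bases inside the gene end that the count table gives, whereas those of Ptgs1 and Ptgs2 coincide with it.

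Among the 10 genes, 9 had such a window, and Alox5ap had none. The C/EBP motif was in 6 of the 9, against 40.68% of all 32851 RefSeq windows, and it was present in windows of genes that rose (Ptgs2, Ptges, Ptger2) and of genes that fell (Ptgds, Hpgd, Pla2g4a). TGACG was in 1 window (Ptgs2), against 20.81% of all windows. AP-1 (7.808% of all windows) and NF-kB (8.459%) matches were found in the Ptgds window alone, TATAAA (13.62%) in that of Hpgd, and CCAAT (37.41%) in those of Ptger2 and Ptger4. A match is a description of letters and not a binding site.

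Release of arachidonic acid starts with Pla2g4a (ENSMUSG00000056220, chromosome 1, 149829618 to 149961290, minus strand), the cytosolic phospholipase A2 alpha. Its level was 75.4, 61.3 and 61.98 CPM in control libraries 1 to 3 and 48.2, 53.3 and 41.6 CPM in DPCP libraries 1 to 3. The lowest control library lay above the highest DPCP library. Pla2g4a fell by 0.47 ± 0.12 (SE) on the log2 scale, with an edgeR adjusted p of 0.0126. Without control replicate 1 the difference was −0.36 at an edgeR adjusted p of 0.0514, just past the threshold; over the alternatives run, that p lay between 0.00263 and 0.0514.

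Other genes of the same phospholipase group rose, except Pla2g4b, which was not called. It had only 36 counts over the control and 26 over the DPCP group. Of its 5831 exon bases, 3878 are shared with Gm28042 and Sptbn5, where reads were not counted, so its level is uncertain. Pla2g4e, which in mice encodes an enzyme that transfers acyl groups between phospholipids, was at 26.3, 21.6 and 38.02 CPM in control and 180.2, 224.0 and 254.1 CPM in DPCP libraries. Every DPCP library lay far above every control library, with a difference of 2.94 ± 0.22 on the log2 scale (SE, edgeR adjusted p = 3.2e-05). Pla2g4d, described in human psoriatic skin, had 0, 6 and 6 counts in control and 152, 369 and 220 counts in DPCP libraries, a mean of 0.126 ± 0.110 against 7.19 ± 2.85 CPM (edgeR adjusted p = 0.000126). Pla2g4f rose less, from 69.2 ± 5.01 to 101.1 ± 4.89 CPM (log2 fold change 0.55 ± 0.09 SE, edgeR adjusted p = 0.0013). Per kilobase of exon, Pla2g4a made up 28.6 ± 3.20% of the summed level of the group IV genes in control and 10.3 ± 1.71% in DPCP libraries, and Pla2g4e 11.2 ± 2.58% and 43.1 ± 4.23%. The summed level of the group went from 36.3 ± 2.96 to 72.7 ± 5.37 CPM per kb. These shares were computed after the values had been seen and were not tested.

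The secreted phospholipases went down where they passed the test. Pla2g3 fell by 1.71 ± 0.14 (SE, edgeR adjusted p = 4.43e-05) and Pla2g5 by 1.06 ± 0.25 (SE, edgeR adjusted p = 0.00921) on the log2 scale. Of 15 further genes listed for arachidonate release, 14 were tested, of which 4 rose, 2 fell and 8 were not called. Counts of called genes in this and the other role lists stand beside 46.1% of all tested genes called, 22.8% as higher and 23.3% as lower. Besides Pla2g4e, Pla2g4d and Pla2g4f, the fourth that rose was Pla2g4c, at 21 counts over the control group and 64 over the DPCP group. Pla2g4d and Pla2g4c passed the filter on low counts through their DPCP libraries, so their rise was partly set by that filter.

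Cyclooxygenase 1, the constitutive enzyme encoded by Ptgs1 (ENSMUSG00000047250, chromosome 2, 36230426 to 36252272, plus strand), was at 207, 193 and 219.7 CPM in control and 114, 98.0 and 106 CPM in DPCP libraries. The groups were far apart relative to their spread. Ptgs1 fell by 0.96 ± 0.09 on the log2 scale (SE, edgeR adjusted p = 0.000115). Of its exon, 148 bases overlap Gm43621 on the other strand, and reads there were not counted.

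Cyclooxygenase 2, the enzyme induced by cytokines and encoded by Ptgs2 (ENSMUSG00000032487, chromosome 1, 150100031 to 150108227, plus strand), was at 10.5, 7.97 and 9.64 CPM in control libraries. In DPCP libraries it was at 43.5, 171 and 61.7 CPM, so all 3 were above control but DPCP replicate 2 was well above the others. The log2 fold change was 3.30 ± 0.48 (SE, edgeR adjusted p = 0.000837), and 223 of the 18259 tested genes had a larger one. Without DPCP replicate 2 it was 2.49, still called. That library also had the highest summed neutrophil genes, 503 CPM against 188 and 283 CPM in the other DPCP libraries and 37.3 to 40.4 CPM in control, and the part of this in the Ptgs2 value was not tested.

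Within a library, counts of a pair of genes can be set against each other; since exon lengths differ, the change of such a ratio is read and not its level. The log2 ratio of Ptgs2 to Ptgs1 was −4.30, −4.59 and −4.51 in control libraries and −1.39, 0.80 and −0.78 in DPCP libraries. Every DPCP ratio was above every control ratio, that of DPCP replicate 2 most. The difference of the means was 4.01 on the log2 scale, 16.1-fold, and 3.38 without DPCP replicate 2. For this and 4 further pairs of genes the control and DPCP ratios did not overlap, and each exact 2-sided permutation test gave p = 0.1, the smallest that 3 against 3 libraries allow (0.1 after Benjamini-Hochberg adjustment over the 5 pairs). In Ptgs2 to Ptgs1, Ptgs2 to Hpgd and Ptger4 to Ptger2, 1 gene rose and 1 fell without overlap, so this outcome was fixed by the single genes. The pairs were chosen with earlier results known, and these p-values add nothing to the single-gene results.

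Per kilobase of exon, Ptgs2 was 4.12, 3.39 and 3.59% of the combined cyclooxygenase level in control libraries and 24.4, 59.7 and 33.1% in DPCP libraries. The combined level itself overlapped between the groups, at 55.5, 51.4 and 58.7 CPM per kb in control and 38.9, 62.6 and 40.8 CPM per kb in DPCP libraries.

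**Figure D2:**
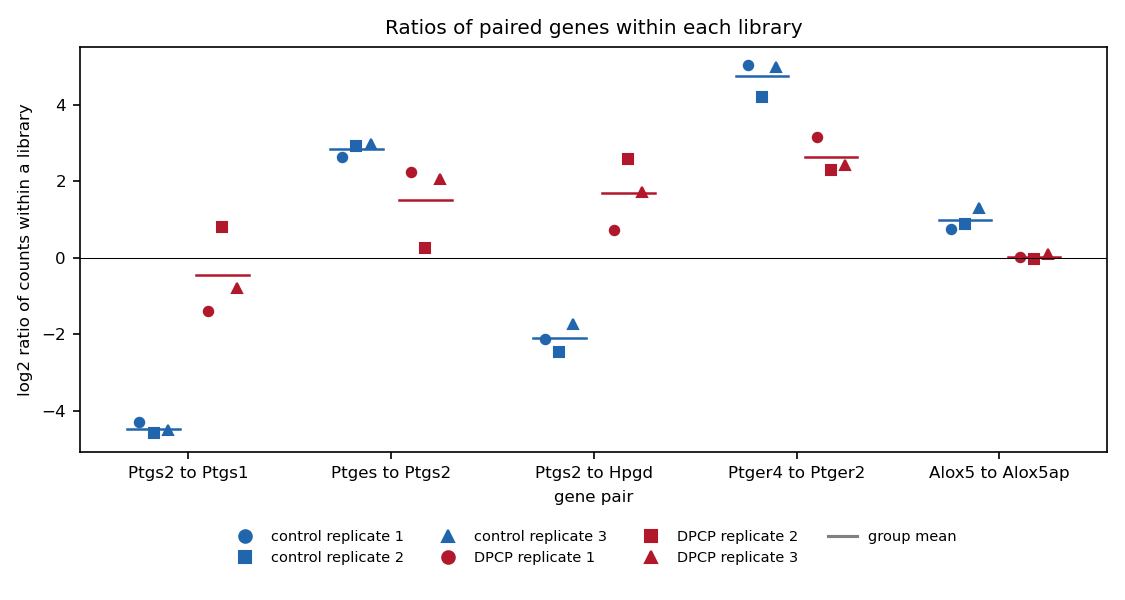
Log2 ratio of the counts of 5 pairs of eicosanoid genes (y axis) within each control and DPCP library (points), with group means (horizontal lines). Ptgs2 to Ptgs1 and Ptgs2 to Hpgd were higher in DPCP libraries, while Ptges to Ptgs2, Ptger4 to Ptger2 and Alox5 to Alox5ap were lower there, with no overlap of groups in any pair.

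Of the terminal synthase genes among the 10, Ptges rose and Ptgds fell. Ptges (ENSMUSG00000050737, chromosome 2, 30889471 to 30929863, minus strand) encodes the inducible membrane-bound PGE2 synthase that works with cyclooxygenase 2. It was at 65.5, 60.5 and 75.3 CPM in control and 204.5, 204.2 and 259 CPM in DPCP libraries. Every DPCP library was well above every control library, and DPCP replicate 2 did not stand apart. Ptges rose by 1.73 ± 0.13 on the log2 scale (SE, edgeR adjusted p = 3.13e-05). The within-library log2 ratio of Ptges to Ptgs2 was 2.64, 2.92 and 2.96 in control and 2.23, 0.26 and 2.07 in DPCP libraries. The DPCP ratios were below those of control, that of DPCP replicate 2 most. The difference of the means, −1.32, was −0.69 without that library.

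Among the PGE2 synthase genes, Ptges took 31.7 ± 2.50% of the summed level per kilobase in control and 54.9 ± 2.66% in DPCP libraries, and the sum went from 53.8 ± 3.44 to 103 ± 9.94 CPM per kb. Ptges3, a cochaperone of Hsp90 also described as a cytosolic PGE2 synthase, rose by 0.35 ± 0.09 on the log2 scale (SE, edgeR adjusted p = 0.0107). Of 9 further terminal synthase genes, all tested, it was the only one called higher. Akr1c18, a steroid dehydrogenase with prostaglandin F synthase activity, was called lower, at −0.52 ± 0.17 (SE, edgeR adjusted p = 0.0391), and the other 7 were not called. The Akr1c18 call was lost without control replicate 1, control replicate 3 or DPCP replicate 3, and its adjusted p lay between 0.00474 and 0.119 over the alternatives.

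Ptgds (ENSMUSG00000015090, chromosome 2, 25466709 to 25470046, minus strand) encodes lipocalin-type PGD2 synthase. It was low in both groups, at 4.67, 6.67 and 3.61 CPM in control and 0.606, 1.04 and 1.26 CPM in DPCP libraries. The groups did not overlap, and the 5.15-fold lower mean in DPCP skin was the largest fall among the 10 genes. Ptgds fell by 2.36 ± 0.33 on the log2 scale (SE, edgeR adjusted p = 0.000645). Ptgds went from 16.4 ± 2.92 to 4.91 ± 2.39% of the summed level per kilobase of the PGD2 synthase genes, whose sum was 18.2 ± 3.30 CPM per kb in control and 12.6 ± 1.98 in DPCP libraries. Most of that sum was Hpgds, the hematopoietic PGD2 synthase gene, with 83.6 ± 2.92% of it in control and 95.1 ± 2.39% in DPCP libraries. Hpgds was not called (edgeR adjusted p = 0.115), its groups overlapped, and its difference on the log2 scale was −0.34 ± 0.16 (SE).

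**Figure D3:**
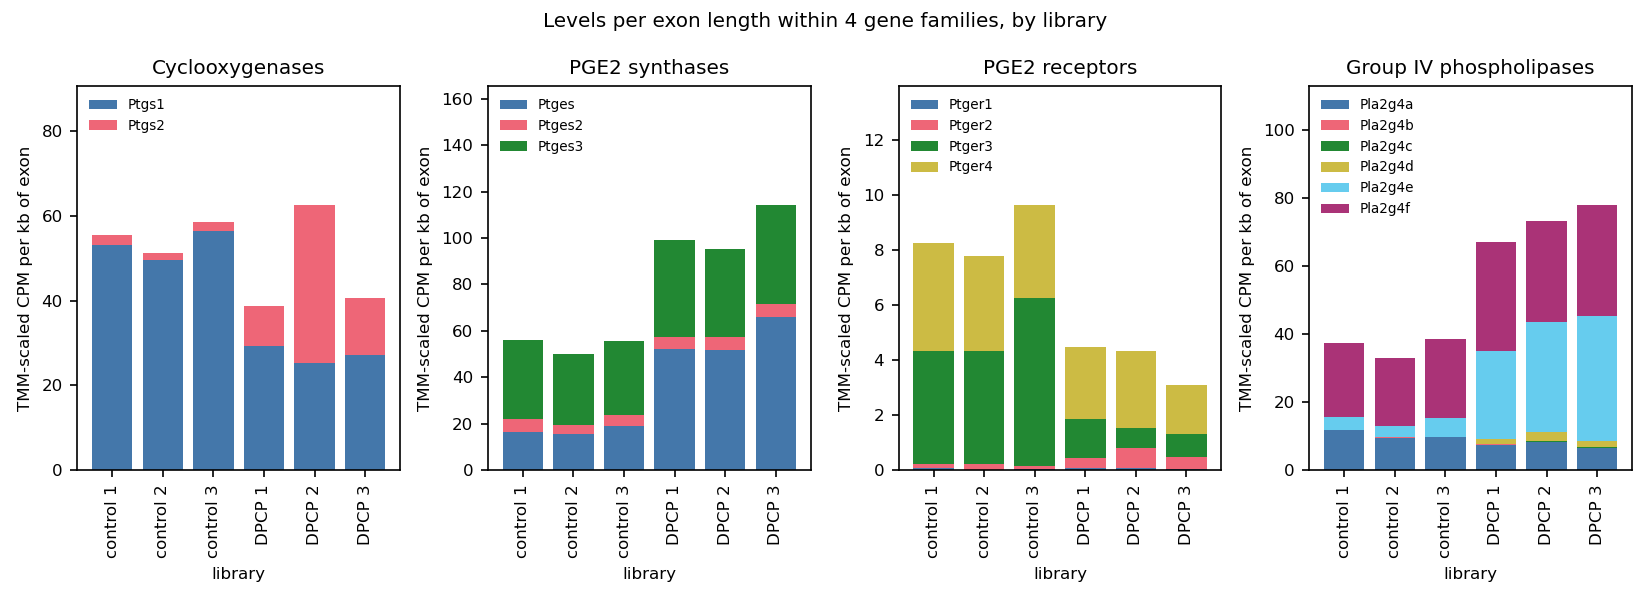
Level per kilobase of exon (y axis, TMM-scaled CPM per kb) of the cyclooxygenase, PGE2 synthase, PGE2 receptor and group IV phospholipase genes, stacked by gene in each control and DPCP library. The cyclooxygenase total overlaps between the groups while its Ptgs2 part grows, and the PGE2 synthase and phospholipase totals are higher and the receptor total lower in DPCP libraries.

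Breakdown of PGE2 begins with the dehydrogenase encoded by Hpgd (ENSMUSG00000031613, chromosome 8, 56294585 to 56321043, plus strand). Its level was 46.2, 44.3 and 31.8 CPM in control and 26.3, 28.4 and 18.6 CPM in DPCP libraries. The lowest control library, replicate 3, lay just above the highest DPCP library. Hpgd fell by 0.74 ± 0.19 (SE) on the log2 scale (edgeR adjusted p = 0.0119). The log2 ratio of Ptgs2 to Hpgd was −2.14, −2.47 and −1.72 in control and 0.73, 2.59 and 1.73 in DPCP libraries, a difference of 3.79 or 13.9-fold. All DPCP ratios lay above those of control.

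Of 5 further genes for prostaglandin transport and breakdown, all tested, 1 rose, 1 fell and 3 were not called. Cbr3, a carbonyl reductase, rose by 0.80 ± 0.09 (SE, edgeR adjusted p = 0.00029). Abcc4, an exporter of prostaglandins, was called lower at −0.28 ± 0.08 (SE, edgeR adjusted p = 0.0233), and that call was lost in 5 of 14 alternatives, over which its adjusted p lay between 0.013 and 0.0791.

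PGE2 acts through several receptors, of which those encoded by Ptger2 and Ptger4 raise cyclic AMP. Ptger2 (ENSMUSG00000037759, chromosome 14, 44988195 to 45003820, plus strand) was near the lower end of what was measured, with 23, 37 and 23 counts in control and 68, 139 and 68 counts in DPCP libraries. These were 0.783, 1.23 and 0.686 CPM against 1.96, 3.80 and 2.19 CPM, with DPCP replicate 2 the highest and no overlap. Ptger2 rose by 1.56 ± 0.35 on the log2 scale (SE, edgeR adjusted p = 0.00672). Exons of Gm17173 and Gm49364 share 246 bases with it, where reads were not counted.

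Ptger4 (ENSMUSG00000039942, chromosome 15, 5206661 to 5244187, minus strand) was at 26.1, 22.9 and 22.4 CPM in control and 17.5, 18.6 and 11.9 CPM in DPCP libraries. The groups lay close to each other without overlapping. Ptger4 fell by 0.57 ± 0.17 (SE) on the log2 scale (edgeR adjusted p = 0.0222). That call was lost without control replicate 1 (adjusted p = 0.0822) and without control replicate 2 (adjusted p = 0.0522), with a range of 0.00439 to 0.0822 over the alternatives. Ttc33 and Gm15937 share 1097 bases of its exons.

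The log2 ratio of Ptger4 to Ptger2 was 5.03, 4.20 and 4.997 in control and 3.14, 2.29 and 2.43 in DPCP libraries, a difference of −2.12. The DPCP ratios were all below those of control. Ptger3, the gene of a PGE2 receptor that lowers cyclic AMP, was at 23.3, 23.4 and 34.7 CPM in control and 8.08, 4.13 and 4.86 CPM in DPCP libraries. It fell by 2.25 ± 0.27 (SE, edgeR adjusted p = 0.000304), more than Ptger4. Of the summed PGE2 receptor level per kilobase, Ptger3 held 55.3 ± 7.14% in control and 25.3 ± 7.64% in DPCP libraries, Ptger4 42.2 ± 6.55% and 60.2 ± 3.95%, and Ptger2 2.08 ± 0.866% and 12.97 ± 4.30%. The sum was lower in DPCP skin, at 3.98 ± 0.759 against 8.56 ± 0.963 CPM per kb. Ptgir, the prostacyclin receptor gene, rose from 7.93 ± 1.90 to 18.8 ± 3.01 CPM (log2 fold change 1.25 ± 0.19 SE, edgeR adjusted p = 0.00115). Of 7 further prostanoid receptor genes, 6 were tested, of which Ptgir rose, Ptger3 fell and 4 were not called.

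Leukotriene synthesis needs 5-lipoxygenase, encoded by Alox5 (ENSMUSG00000025701, chromosome 6, 116410077 to 116461178, minus strand), and the membrane protein that hands it arachidonic acid, encoded by Alox5ap. Alox5 was at 31.7, 32.5 and 29.5 CPM in control and 24.2, 38.4 and 27.9 CPM in DPCP libraries. DPCP replicate 2 was above and the other 2 DPCP libraries below every control library. The log2 fold change was −0.05 ± 0.16 (SE, edgeR adjusted p = 0.819), and it was positive without DPCP replicate 1 or DPCP replicate 3, at 0.09 and 0.01. A p that misses the threshold does not show that the level was the same.

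Alox5ap (ENSMUSG00000060063, chromosome 5, 149264767 to 149288153, plus strand) was at 18.8, 17.6 and 11.9 CPM in control and 23.9, 39.6 and 26.3 CPM in DPCP libraries. All DPCP libraries were above control, and replicate 2 was the highest. Alox5ap rose by 0.90 ± 0.23 on the log2 scale (SE, edgeR adjusted p = 0.0118), and 189 bases of its exons are shared with Gm19719. The log2 ratio of Alox5 to Alox5ap was 0.75, 0.89 and 1.31 in control and 0.02, −0.05 and 0.09 in DPCP libraries. The difference was −0.96, with the 3 DPCP ratios close to each other and below control.

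Further along the leukotriene branch, 10 genes were listed for synthesis, export and breakdown and 9 tested, of which 2 rose, 3 fell and 4 were not called. Ltc4s, the synthase of leukotriene C4, fell by 1.05 ± 0.26 (SE, edgeR adjusted p = 0.0116), on 303 counts over the control and 163 over the DPCP group. Ggt5, which cleaves leukotriene C4 to D4, rose by 1.59 ± 0.21 (SE, edgeR adjusted p = 0.000522), and Dpep1, which turns D4 into E4, fell by 1.04 ± 0.17 (SE, edgeR adjusted p = 0.0014). Cyp4f18, which hydroxylates leukotriene B4 in mouse neutrophils, rose from 5.37 ± 2.03 to 13.7 ± 5.84 CPM (log2 fold change 1.36 ± 0.34 SE, edgeR adjusted p = 0.0117) and was highest in DPCP replicate 2. Mgst3, a microsomal glutathione transferase, was called lower at −0.30 ± 0.10 (SE, edgeR adjusted p = 0.0339), a call lost in 6 of 14 alternatives, with adjusted p between 0.0121 and 0.122.

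The leukotriene B4 receptor genes rose. Ltb4r1, the high-affinity receptor of neutrophils and other leukocytes, was at 10.6, 10.9 and 11.4 CPM in control and 24.6, 24.2 and 28.6 CPM in DPCP libraries. It rose by 1.23 ± 0.11 on the log2 scale (SE, edgeR adjusted p = 7.17e-05). Both groups were narrow, and DPCP replicate 2 was not the highest. Ltb4r2, the low-affinity receptor gene, also made in keratinocytes, rose by 0.73 ± 0.15 (SE, edgeR adjusted p = 0.00395). The 2 other tested leukotriene receptor genes of the 5 listed were not called.

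The other lipoxygenase genes went down where they passed the test. Of 6 listed, all tested, 4 fell and 2 were not called, beside 46.1% of all tested genes called and 23.3% called lower. Those not called were Alox8 (log2 fold change −0.12 ± 0.31 SE) and Alox15 (0.08 ± 0.39 SE). Alox12, the platelet-type 12-lipoxygenase also made in epidermis, went from 28.5 ± 2.01 to 5.97 ± 0.966 CPM (log2 fold change −2.25 ± 0.14 SE, edgeR adjusted p = 1.57e-05). Aloxe3 and Alox12b, which act in succession on lipids of the epidermal barrier, fell by 1.44 ± 0.15 and 0.80 ± 0.12 (SE, edgeR adjusted p = 0.000176 and 0.00116). Alox12e, the epidermis-type 12-lipoxygenase of the mouse, was the fourth, at −1.53 ± 0.24 (SE, edgeR adjusted p = 0.00124). Suprabasal keratinocyte genes were lower too, summing to 12542 to 17733 CPM in control and 4606 to 5906 CPM in DPCP libraries, with 5 of 7 called lower and 1 higher, and their part in the lipoxygenase values was not tested.

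Across these 57 further pathway genes, 53 were tested, of which 11 rose, 12 fell and 30 were not called. The 23 called were 43.4% of those tested, near the 46.1% of all genes, and the median log2 fold change was −0.11.

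**Figure D4:**
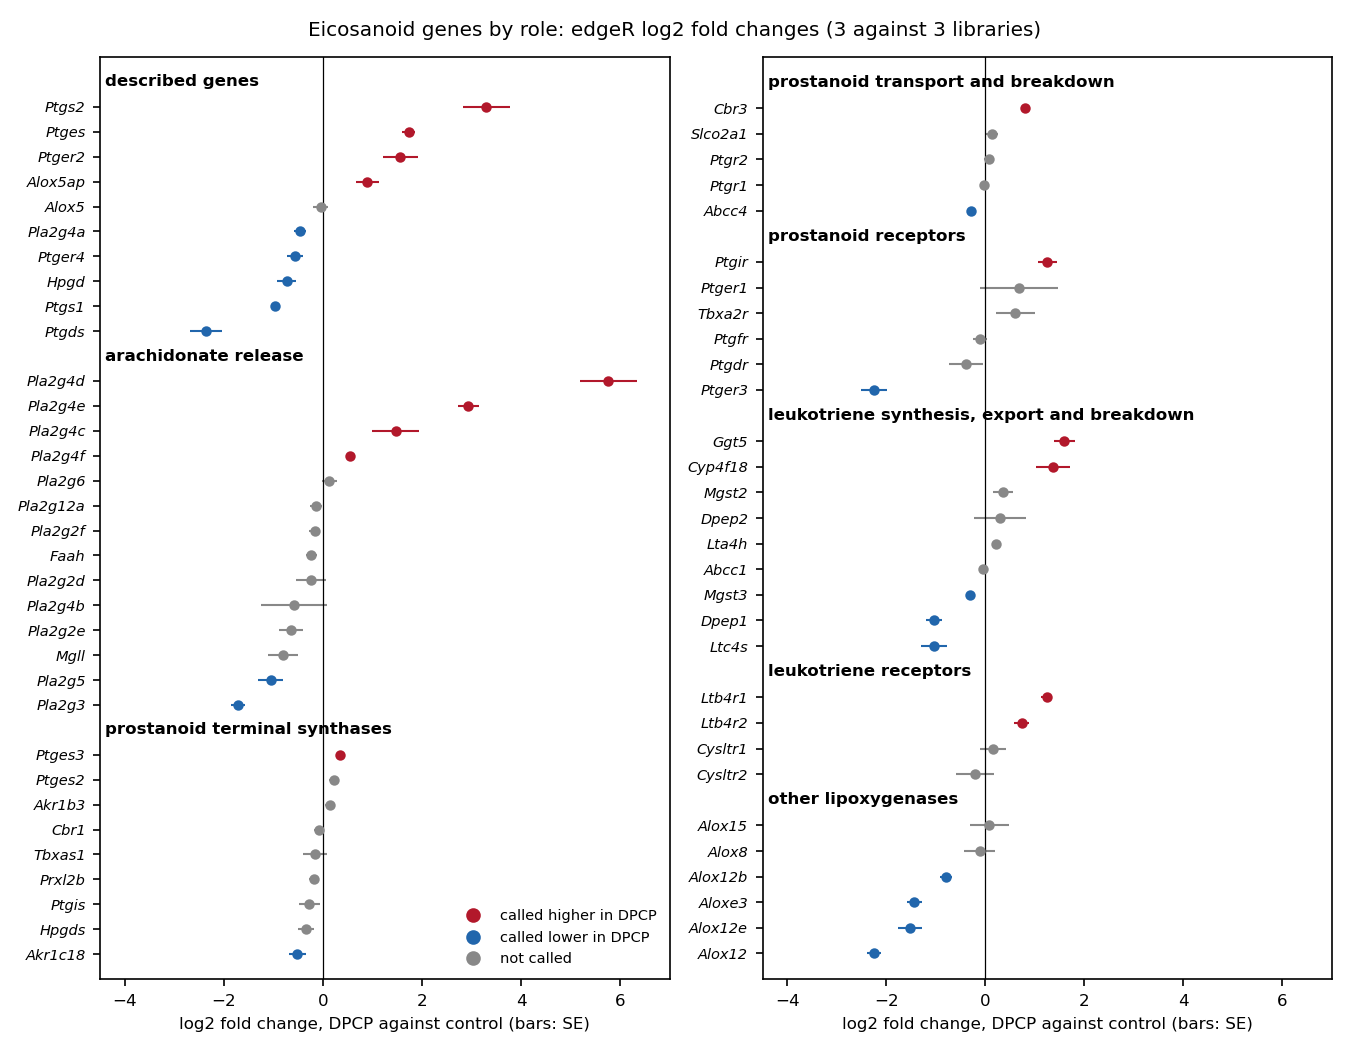
Log2 fold change of DPCP over control (x axis) with its standard error (bars) for the 10 eicosanoid genes and the 53 further pathway genes tested, grouped by role (y axis). Red points were called higher, blue points lower and grey points not called: the called leukotriene receptor genes lie to the right of 0, the called lipoxygenase genes to its left, and the other roles hold calls on both sides.

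The order of the 10 genes also changed between groups when levels were taken per kilobase of exon. In control skin it ran from Ptgs1 (53.1 ± 3.48 CPM per kb) through Hpgd (24.2 ± 4.64) and Ptges (17.1 ± 1.91), whose ranges overlapped, to Alox5ap (11.3 ± 2.60) and Pla2g4a (10.4 ± 1.25), which also overlapped. Alox5 (7.60 ± 0.379) came next, then Ptger4 (3.58 ± 0.302), Ptgds (3.02 ± 0.941) and Ptgs2 (2.04 ± 0.280), each overlapping its neighbour, and Ptger2 last (0.173 ± 0.0562). In DPCP skin Ptges came first (56.6 ± 8.04 CPM per kb), apart from the next. Ptgs1 (27.3 ± 2.08), Alox5ap (21.1 ± 5.97), Ptgs2 (20.1 ± 15.1) and Hpgd (14.5 ± 3.06) followed, each overlapping its neighbour. Below them were Pla2g4a (7.46 ± 0.922) and Alox5 (7.34 ± 1.80), which overlapped, then Ptger4 (2.41 ± 0.542), and Ptgds (0.587 ± 0.201) and Ptger2 (0.511 ± 0.193), which overlapped.

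Several cell type lists also differed between the groups, and their part in the values above was not tested. Counts of called genes in these lists stand beside 46.1% of all tested genes called, 22.8% as higher and 23.3% as lower. All 8 tested of 11 neutrophil genes rose. Among them Stfa2l1, Mmp8 and Camp had 2, 12 and 16 counts over the control group and passed the filter through their DPCP libraries, so their rise was partly set by the filter. The same holds for Clec4d, at 78 counts over the control group. In the lists below it holds for Tpsab1 (mast cell), Ppbp (platelet) and Tyr (melanocyte), at 17, 22 and 27 counts over that group. Ly6g, Ngp and Ltf were not tested, at 1, 0 and 8 counts over the control group and 60, 7 and 29 over the DPCP group. Mast cell genes summed to 255 to 299 CPM in control and 400.5 to 640.4 CPM in DPCP libraries, with 6 of 9 called higher and 1 lower. The largest part of that difference was Hdc, with control at 3.84 ± 0.468 CPM and DPCP at 102.2 ± 73.0 CPM. Mrgprb2 was the gene called lower, and Ms4a2 and Gata2 were not called. Macrophage genes, a usual site of Alox5 and Alox5ap transcripts, summed to 2143 to 3581 CPM in control and 3565 to 6191 CPM in DPCP libraries, ranges that overlap, with 4 of 11 called higher. Endothelial genes, another site of Ptgs1 and Ptgs2, rose for 4 of 5, and their sum went from 164 to 196 CPM without DPCP to 327 to 374 CPM with it. Of 4 tested platelet genes 3 rose, and the sum of the 5 listed went from 39.4 to 61.9 CPM to 129 to 263 CPM. Most of that sum was Pf4, which went from 45.2 ± 10.4 to 157.1 ± 61.2 CPM. Gp1ba was not called, and every DPCP library lay below every control library for it. Gp9 was not tested, with 0 counts over the control group and 8 over the DPCP group. T cell genes were lower (5 of 5), at 45.0 to 61.3 CPM in control and 11.7 to 16.7 CPM in DPCP libraries. Schwann cell genes (3 of 5) were lower and melanocyte genes (2 of 5) higher, without overlap of their sums, whereas the sums of eosinophil, fibroblast, adipocyte and red cell genes overlapped between groups, and the eosinophil gene Epx was at 0 in all libraries. Of the 3 DPCP libraries, replicate 2 had the highest sums of neutrophil, macrophage, mast cell, platelet, endothelial, fibroblast, melanocyte, adipocyte and red cell genes. It was also the highest DPCP library for Ptgs2, Ptger2, Alox5 and Alox5ap, and for Ptger4, Hpgd and Pla2g4a, which were lower than in control.

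Among 12423 genes with a symbol and a mean of at least 5 CPM, those whose log2 CPM followed Ptgs2 most closely over the 6 libraries were Ssr3 (Pearson's r = 0.9997), Washc5 (0.9990) and Hnrnph2 (0.9978). Their differences were far smaller: Ssr3 was at 253 to 262 CPM in control and 341, 437 and 364 CPM in DPCP libraries, in the same order as Ptgs2. For Ptgds they were Tspyl3 (0.9979), Pgm1 (0.9975) and Zscan25 (0.9969). With 6 libraries in 2 groups these values mostly reflect the difference between groups, and they describe likeness of pattern only.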

How the data were processed

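Gene expression was measured by RNA sequencing in 6 libraries, 3 of control and 3 of DPCP-treated whole skin. What the authors deposited are raw counts for each gene. Per the file headers they used featureCounts 1.6.2 with the Ensembl annotation of GRCm38 (release 102). That command sets no option for strand, read pairs, multiple alignments or overlapping genes, so mates were counted singly on either strand, antisense reads could not be told from sense ones, and ambiguous reads were dropped. This bears on 4 of the 10 genes, which share exon bases with another gene, so their levels are uncertain. Other tools in the submitters' processing notes are HISAT2 2.2.1, Trimmomatic 0.36, DESeq2 1.34.0 and StringTie 2.2.1, with mm10 as the build. Exon lengths, used for levels per kilobase, are from the deposited table.

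Of 55487 genes, 55141 were matched to a symbol. The test was edgeR's quasi-likelihood test (edgeR 4.0.16 in R 4.3.3; TMM factors of 0.942 to 1.04, filterByExpr at its defaults) over all 18259 genes that passed, with Benjamini-Hochberg adjustment over all of them. To obtain a standard error, the unshrunken log2 fold change was divided by the root of its F statistic. The procedure was run on simulated data, in 3 draws with 200 changed genes each. That is far fewer than the 8417 genes called here, so the draws do not test it at such a share. Ratios of 2 genes within a library used log2 of counts plus 0.5. Libraries of a group all differed beyond sampling noise, with a chi-square of 18.2 or more per gene. Promoter windows and their motif matches came from RefSeq.

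The 10 genes, the further pathway lists, the cell type lists and the tests were chosen with earlier results of these data known. Of the further genes, the text names up to 3 called in each direction per role, by smallest p. Pla2g4b, Pla2g4c, Pla2g2f, Alox12e, Hpgds, Alox8, Alox15 and Ptgdr were added after values had been seen. So were the gene families whose shares are given and the single cell type genes named. The 3 genes most like Ptgs2 and Ptgds, the members with the largest rise and fall, were taken by Pearson's r. The alternatives tried were upper-quartile factors, RLE factors, scaling by library totals, no count filter, at least 1 CPM in 3 libraries, DESeq2 1.42.0, a replicate block, genes sharing no exon base, and leaving out each library.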

Additional observations from a re-analysis of the deposited data

How the results depend on the processing

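With upper-quartile factors, RLE factors, scaling by library totals, no count filter, a minimum of 1 CPM in 3 libraries and DESeq2, 9 of the 10 genes were called, 4 higher and 5 lower. Over 8 settings that keep all libraries, 236 of 240 values of 31 single genes (the 10 members and the further genes chosen by smallest p) kept their direction and call, 4 lost the call (Abcc4 with no count filter and with DESeq2, Mgst3 with DESeq2 and with the replicate block) and 0 turned. Among genes sharing no exon base, 5 of the remaining members were called, 2 higher and 3 lower, since 4 members drop out by construction; over all genes the calls were then 5599, with 2708 higher. Leaving out 1 library at a time gave 7 to 9 members called, 4 to 4 higher and 3 to 5 lower, with 3 without control replicate 1, where Pla2g4a and Ptger4 were lost. It gave 7016 to 8074 calls over all genes (3492 to 4035 higher, 3430 to 4039 lower) and 20 to 24 of the wider pathway (10 to 11 higher, 10 to 14 lower). The log2 ratio differences then ranged from 3.38 to 4.48 for Ptgs2 to Ptgs1, −1.68 to −0.69 for Ptges to Ptgs2, 3.34 to 4.27 for Ptgs2 to Hpgd, −2.39 to −1.95 for Ptger4 to Ptger2 and −1.08 to −0.80 for Alox5 to Alox5ap. The log2 fold change of Alox5, never called, ranged from −0.27 to 0.09 and turned positive without DPCP replicate 1 (0.091) or 3 (0.010). The causes of the lost calls were not tested.

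Replicate numbers are shared by the groups, but deviations of same-numbered libraries correlated only weakly, at 0.0455, 0.0265 and 0.112, so the numbers were not taken to pair the samples. Libraries of different number correlated at −0.143 to 0.099. Control replicate 1 correlated best with DPCP replicate 2, and control replicates 2 and 3 with the DPCP library of their own number. With the replicate block 8501 genes were called (4260 higher, 4241 lower), 9 of the 10 members (4 higher, 5 lower) and 24 of the wider pathway (11 higher, 13 lower), and of those 31 genes Mgst3 lost its call. Pla2g4b, Pla2g4c, Pla2g2f, Alox12e, Hpgds, Alox8, Alox15 and Ptgdr were not run singly under the alternatives. Precision is limited by counts for Ptger2, Pla2g4d, Pla2g4c and Pla2g4b, and by 3 libraries a group for all.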

Other observations

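Several of these genes are neighbours on their chromosome. Ptgs2 and Pla2g4a lie 138.7 kb from each other on chromosome 1, on opposite strands, with 3 genes of the table between them, of which 0 were tested; Ptgs2 rose and Pla2g4a fell. On chromosome 2, Pla2g4e, Pla2g4d and Pla2g4f follow each other on the minus strand with gaps of 20.3 and 10.8 kb and no gene between, and all 3 rose. Pla2g4b, on the plus strand of the same chromosome, was not called, on 36 counts over the control and 26 over the DPCP group. On chromosome 14, Ltb4r2 and Ltb4r1 are 0.823 kb apart, and both rose. Ptger2 and Ptgdr are 128.8 kb apart there, and Ptger2 rose while Ptgdr was not called. On chromosome 11, Alox12b and Aloxe3, 7.87 kb apart, and Alox12 and Alox12e, 60.3 kb apart, all fell. Alox8, which lies beyond Alox12b, and Alox15, which lies beyond Alox12e, were not called (edgeR adjusted p = 0.785 and 0.880). Neighbours thus did not always share a call. They were looked at after the values were known, and no test was made of them.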
